A study of Mus musculus with 4 samples.

Results

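At 3579 cytosines of mouse blood stem and progenitor cells, 5-methylcytosine (5mC) was higher and 5-hydroxymethylcytosine (5hmC) was lower in the Hdac6 knockout than in wild type. They were chosen as the positions present in both of the authors' deposited comparison tables whose knockout level exceeded the wild-type level for 5mC and fell short of it for 5hmC. They make up 28.4% of the 12608 positions that both tables hold, and 112462 positions stand in at least 1 table. The directions of both differences are thus the rule by which the positions were chosen and not a finding.

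The cells were LSK cells, sorted from mouse bone marrow as negative for lineage antigens, high in Sca-1 and positive for c-Kit, a fraction rich in haematopoietic stem and progenitor cells. Wild-type (WT) and HDAC6 knockout (HDAC6 KO) cells each gave 1 whole-genome bisulfite library (WGBS-seq) and 1 oxidative bisulfite library (oxWGBS-seq), so every group is 1 library and no difference has a replicate check. The study's design asks where both marks differ in mice without HDAC6, and its title ties this deacetylase to the enzyme IDH1. The labels give no age, sex, strain, deleted exon or Cre driver, and the sources used here do not state how many animals a library came from. Both tables hold no expression values, so the labelled cell type was not checked against marker genes.

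DNA methyltransferases place 5mC, mostly at cytosines followed by guanine (CpG sites), and DNMT1 copies it to the new strand at replication. The TET dioxygenases oxidise 5mC to 5hmC with oxygen and 2-oxoglutarate, which isocitrate dehydrogenases supply, and 5hmC is a step towards unmodified cytosine. In blood cells 5hmC is known from enhancers and gene bodies, and loss of TET2 function is a known event in myeloid disease. Bisulfite sequencing reads both marks as methylated, whereas oxidation before bisulfite leaves 5mC alone to be read as methylated. 5hmC can therefore be estimated as the difference of both measurements. In that case an error in the oxidative library moves the estimates of 5mC and 5hmC in opposite directions.

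Sequence was available for the members that lie from 250 bases before to 50 bases after a gene's start. There 42 members lay in the windows of 40 genes, 35 of them upstream of the start, and CG stood at each of the 43 matches of a member to a window. The stretches below, from RefSeq on GRCm38.p6 and read 5′ to 3′ on the gene's strand, show members next to genes of immune cells, members that come in pairs and windows rich or poor in CG; they were chosen after their values were seen. Capitals mark the CG of each member, which is the same CpG on either strand.
Tbx21, chr11:97115538-97115581, minus strand: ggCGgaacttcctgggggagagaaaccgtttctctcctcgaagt
Prf1, chr10:61297740-61297821, plus strand: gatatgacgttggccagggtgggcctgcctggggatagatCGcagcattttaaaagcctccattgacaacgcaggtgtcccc
Il1a, chr2:129310118-129310199, minus strand: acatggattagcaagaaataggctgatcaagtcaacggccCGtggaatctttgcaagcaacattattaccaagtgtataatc
Nradd, chr9:110624485-110624603, minus strand: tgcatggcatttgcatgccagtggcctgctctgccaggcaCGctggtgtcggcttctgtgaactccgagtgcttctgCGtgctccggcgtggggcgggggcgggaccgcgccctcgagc
Itga9, chr9:118711484-118711591, plus strand: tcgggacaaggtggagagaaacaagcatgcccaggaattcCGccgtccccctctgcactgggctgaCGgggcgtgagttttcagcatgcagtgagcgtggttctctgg
Cntln, chr4:84884133-84884214, plus strand: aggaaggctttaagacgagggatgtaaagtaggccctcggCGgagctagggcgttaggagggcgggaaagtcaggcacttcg
Myom1, chr17:71019307-71019385, plus strand: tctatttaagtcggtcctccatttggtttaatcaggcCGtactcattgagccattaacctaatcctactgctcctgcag

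At Tbx21, the gene of the T-cell factor T-bet, the member lies 247 bases before the start in a window with 21 CG, of which it alone is listed in the deposited tables. Here and below, a pair of levels gives wild type first and knockout second, and q is the authors' p-value after their adjustment for many tests. The authors' deposited tables give it 0% 5mC in wild type against 19.4% in the knockout, and 35.5% and 0% 5hmC. Prf1 encodes perforin, the pore-forming protein of cytotoxic lymphocytes, and its member 56 bases before the start had 16.7% and 50% 5mC and 30% and 2.78% 5hmC in the authors' deposited tables. Il1a encodes the cytokine interleukin-1 alpha; its member was at 60% and 100% 5mC and at 36.8% and 0% 5hmC in the authors' deposited tables. All 3 members went with q = 1 for 5mC in those tables, and their 5hmC q was 0.791 at Tbx21 and 1 at the other genes.

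Where a window held a pair of members, both cytosines had like levels. At Itga9, the gene of integrin alpha 9, wild-type 5mC was 81.6 and 73.7% and knockout 5mC 100 and 95.5% in the authors' deposited tables, and 5hmC of 18.4 and 26.3% stood against 0 and 4.55%. At Nradd the pair had 19.5 and 25% 5mC in wild type against 45.7 and 51.7% in the knockout, and 37.8 and 36.6% 5hmC against 0 and 3.70%, in the authors' deposited tables. Cntln, with 26 CG in its window, had 0% and 20.4% 5mC and 28.6% and 0% 5hmC in the authors' deposited tables. Myom1, a muscle sarcomere gene with 2 CG in its window, had 13.0% and 61.1% 5mC and 59.1% and 0% 5hmC there. The position nearest to a start was at Zap70, the kinase gene of T-cell receptor signalling, 1 base upstream, with 41.9% and 76.5% 5mC and 40.7% and 6.25% 5hmC in the authors' deposited tables.

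Over the 42 promoter members the median 5mC level was 33.2% in wild type against 67.2% in the knockout, and the median 5hmC level 29.6% and 0%. One of the 42, at Gm51598, had a 5hmC q under 0.05 in the authors' deposited table. The 40 windows with a member held a median of 9 CG, against 7 in all 32851 promoter windows and 7 in the 57 windows with a position of the reverse kind (5mC lower, 5hmC higher). Windows with 15 or more CG made up 22.5% of the 40, 34.6% of all windows and 8.77% of the 57. For the rest of the 5mC list this share was 23.7% (85 of 358 windows), and for the rest of the 5hmC list 18.8% (131 of 696), each with a median of 8 CG. The share of the member windows lay between these 2. Cytosines that the authors tested without listing them were not analysed here, and these shares also follow where reads allowed a test.

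The members are a small share of each list. The deposited 5mC table lists 53206 positions, of which 40.3% were higher in the knockout, and the members are 16.7% of those 21465 higher positions. The deposited 5hmC table lists 71864 positions, of which 35.6% were lower, and the members are 14.0% of those 25599. Among the 12608 shared positions 9015 had the reverse pattern, 11 were higher in both marks and 3 lower in both. Opposite directions thus held at 12594 shared positions, or 99.9%. Whether the deposited 5hmC levels were made by subtraction is not stated in the sources used here. How much of the 99.9% a subtraction would account for was not tested, and it cannot be told apart from a conversion of one mark into the other. At 112 members both tables gave the same p-value, and at 200 members the levels of both marks summed to exactly 100% in each genotype (within 0.011 points).

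**Figure D1:**
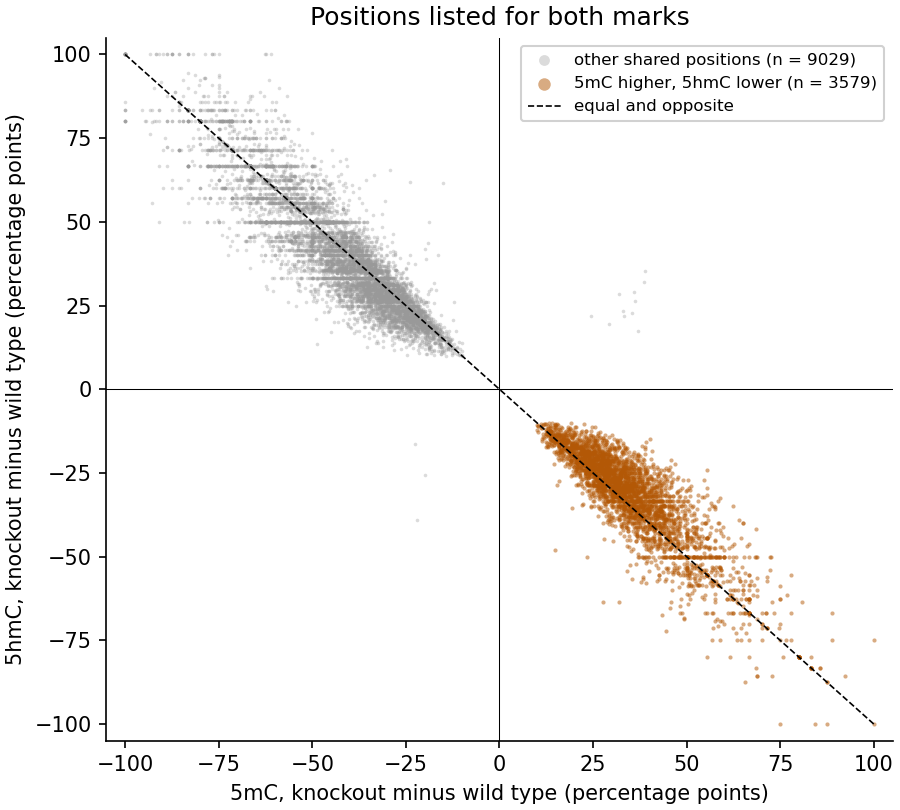
Each point is 1 of the 12608 shared positions, with the 5mC difference on the horizontal axis and the 5hmC difference on the vertical axis, both as knockout minus wild type in percentage points. The 3579 members (orange) and the 9015 reverse positions lie along the dashed line of equal and opposite differences, and 14 positions lie in the other quadrants; the empty gap around 0 is the smallest listed difference of 10 points.

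Members were partly methylated and carried 5hmC in wild type, whereas in the knockout most of them were read as 5mC with no 5hmC. The median 5mC level was 50% in wild type against 89.5% in the knockout. The median difference was 33.3 points (95% interval of the median 32.9 to 33.8; quartiles 26.0 and 42.2). The median 5hmC level was 29.6% in wild type against 0% in the knockout, with a median difference of -29.2 points (-29.6 to -28.9; quartiles -38.5 and -22.2). These intervals cover the choice of positions only and say nothing of the spread between animals, for which no replicate exists.

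The knockout 5hmC level was exactly 0 at 3162 members (88.3%). The other 417 members had 5hmC above 0 in both genotypes, with medians of 33.3% in wild type against 3.57% in the knockout. 5mC reached at least 90% in the knockout at 1758 members (49.1%), and 649 were at exactly 100%. Only 59 members had no 5mC at all in wild type.

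**Figure D2:**
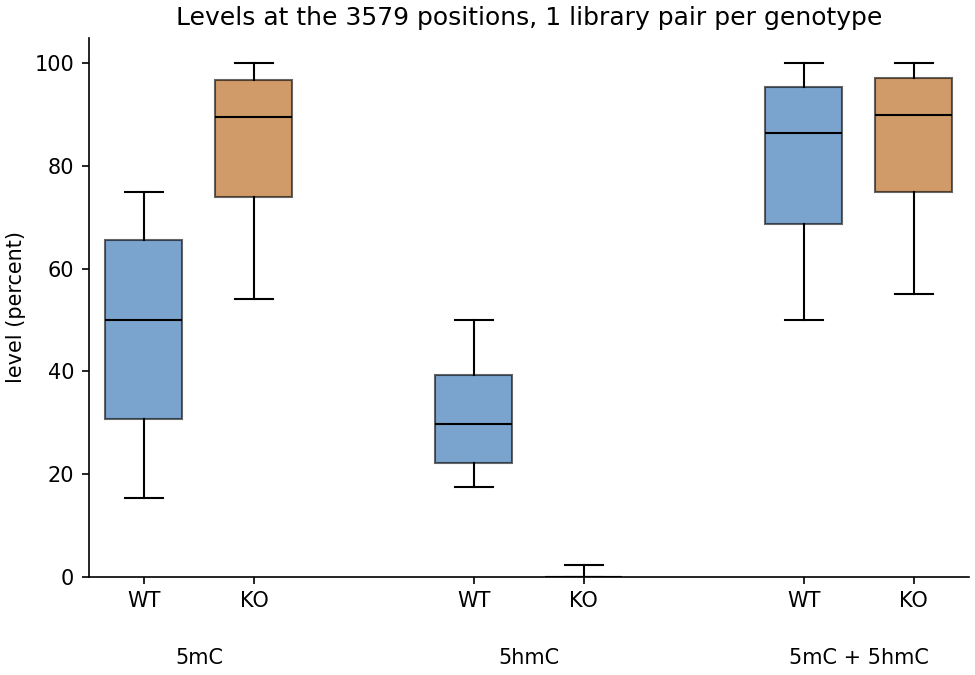
Levels over the 3579 members, in percent, for 5mC, 5hmC and their sum in wild type (WT, blue) and knockout (KO, orange). Boxes span the quartiles with the median as a line, and whiskers run from the 10th to the 90th percentile; knockout 5hmC lies on the axis because 88.3% of its values are 0, while the sums overlap closely.

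The sum of both marks, which the rule did not use although it is made of the same values, differed little between genotypes. Its median was 86.4% in wild type against 90% in the knockout, with a median change of 2.78 points (2.52 to 2.96; quartiles -0.465 and 7.14). The sums lay within 10 points of each other at 2983 members (83.3%). The knockout sum was the higher at 2405 members (67.2%), over 20 points higher at 48 and over 20 points lower at 11. At the 9015 reverse positions the median sum was 95.2% in wild type against 93.4% in the knockout. Across members the 5mC and 5hmC differences had a Pearson correlation of -0.872 and a Spearman correlation of -0.851 (n = 3579 positions, all from the same 4 libraries, with signs fixed by the rule and level sums bounded near 100%). The sum exceeded 100% at 223 members in wild type (6.23%) and at 15 in the knockout, up to 118.5%, which a true pair of levels cannot do.

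Members with little wild-type 5mC and members with much of it differed in what the knockout reached. The 498 members below 20% 5mC in wild type had medians of 11.4% 5mC and 35.3% 5hmC there and of 48.9% 5mC in the knockout. The 788 members from 20 to 40% went from a median of 30.6% to 73.9%, and the 1009 from 40 to 60% from 50% to 88.9%. The 1113 members from 60 to 80% had 68.4% and 96.4%, and the 171 above 80% had 82.4% and 100%. In each of the 5 classes the knockout 5mC level lay near the wild-type sum of both marks, which ran from 46.7% in the lowest class to 99% in the highest.

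Members with low wild-type 5mC lay near gene ends and start sites more often than those from 60 to 80%. Of those below 20% wild-type 5mC, 28.0% lay within 2000 bp of either end of a gene (Wilson 95% interval 24.2 to 32.1%, counting error only), against 15.6% (13.5 to 17.8%) of those from 60 to 80%. Within 1000 bp of a transcription start site these shares were 12.3% and 4.12%.

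**Figure D3:**
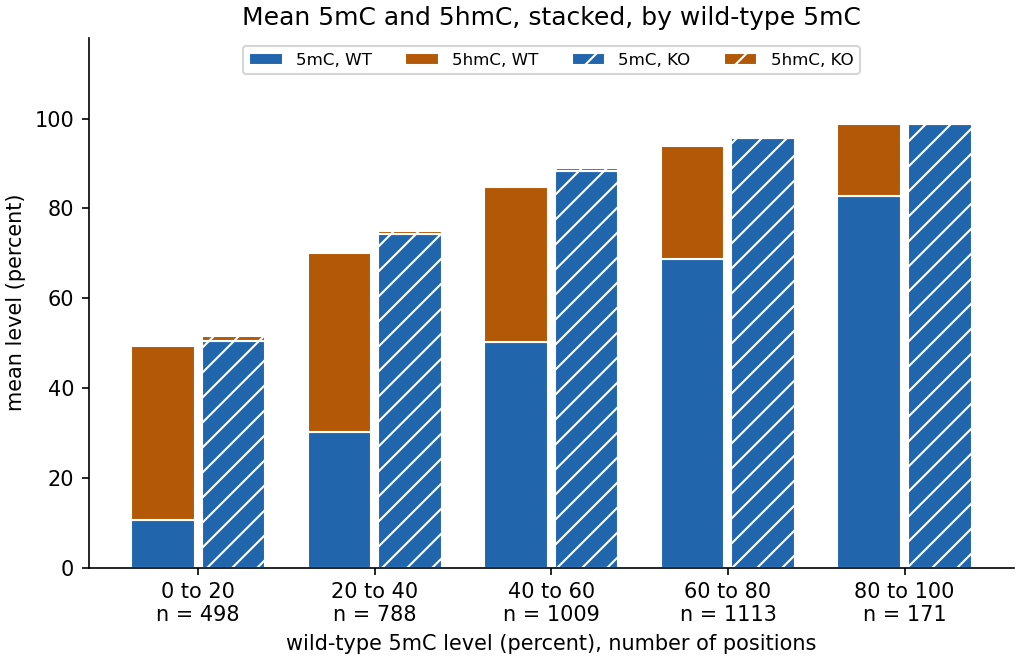
Mean 5mC (blue) and mean 5hmC (orange), stacked, in percent, for members grouped by their wild-type 5mC level; plain bars are wild type, hatched bars knockout, and n is the number of members. The stacked heights of both genotypes lie close together in every class, and nearly all of the knockout bar is 5mC.

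The 3579 members were spread over the genome. Of these, 711 (19.9%, 18.6 to 21.2%) lay within 2000 bp of a gene end, 1608 (44.9%) deeper inside a gene, 1238 (34.6%) between genes and 22 on unplaced scaffolds. Near gene ends stood 13.7% (13.0 to 14.4%) of the reverse positions and 15% of the rest of the 5mC list, whereas the rest of the 5hmC list had 19% (18.8 to 19.3%). The interval of the members lay above that of the reverse positions and overlapped that of the other 5hmC positions. These intervals take positions as independent, although 268 members lie in clusters, so they are no test of a difference between the sets. By median wild-type 5mC the members (50%) and the reverse positions (94.4%) also differed. Members near gene ends had a median 5mC of 43.5% in wild type against 82.8% in the knockout, and those between genes 52.4% and 91.3%.

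Start sites gave a like picture. Among the 3433 members on chromosomes in the start-site table, which leaves out chromosome 18, 82 (2.39%, 1.93 to 2.96%) lay within 250 bp of a start. The share was 1.03% (0.842 to 1.27%) of the reverse positions, 1.30% of the rest of the 5mC list and 1.98% of the rest of the 5hmC list. The median distance to a start was 19631 bp for members and 26127 bp for reverse positions.

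**Figure D4:**
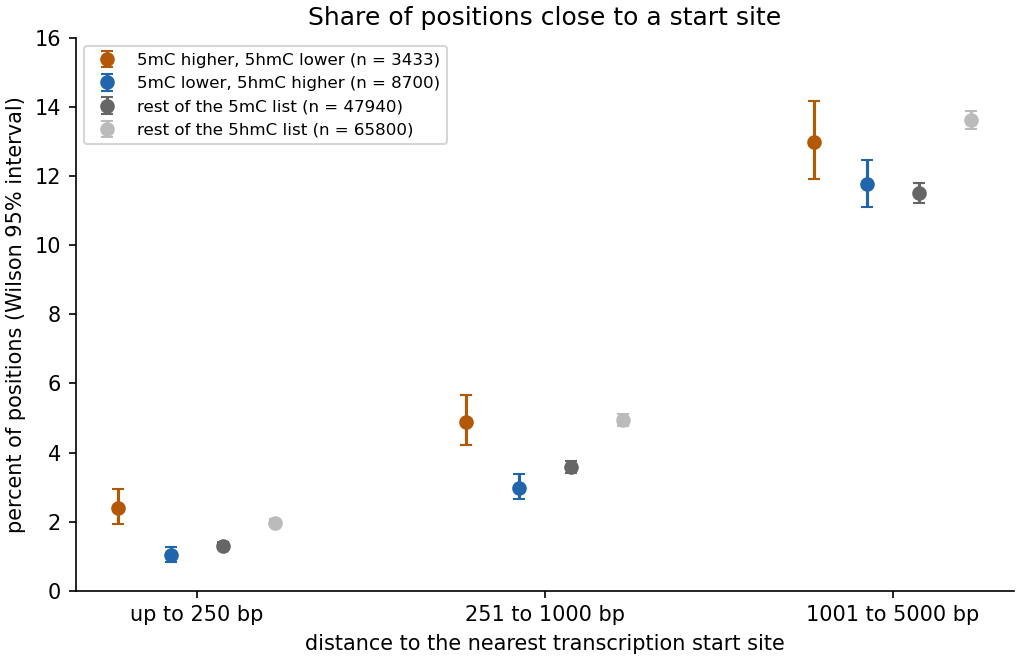
Percent of positions in 3 classes of distance to the nearest transcription start site, with Wilson 95% intervals (counting error only), for members (orange), reverse positions (blue) and the other positions of each list (greys). In both classes up to 1000 bp the members stand above the reverse positions and the rest of the 5mC list, and their intervals include the share of the rest of the 5hmC list.

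Listed positions near a member mostly had the same direction in their own table, although they were not members themselves. Within 1000 bp of a member, 453 of 663 other 5mC positions were higher in the knockout (68.3%, 64.7 to 71.8%), against 36% of all non-member positions of that list. Within 200 bp this share was 87.3%, and within 5000 bp 52.7%. Of 1433 other 5hmC positions within 1000 bp, 840 were lower in the knockout (58.6%, 56.0 to 61.1%), against 32.2% of the list without members, with 76.7% within 200 bp and 45.4% within 5000 bp. Neighbouring CpGs can be read on the same DNA fragments, so these positions are not independent of the members.

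Most members nonetheless stood alone. No other member lay within 1000 bp of 3311 (92.5%), and the other 268 formed 94 clusters, of which 69 were pairs and 7 held 5 or more.

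A cluster of 18 members lies in Kcnq1ot1, the imprinted non-coding RNA that is transcribed from the paternal allele antisense to the potassium channel gene Kcnq1 and silences neighbouring genes. It covers chr7:143295628-143296408, from 139 to 919 bp downstream of the Kcnq1ot1 start and inside Kcnq1. Wild-type 5mC ranged from 20 to 42.6% and knockout 5mC from 52.3 to 70.1% (medians 37.1% and 65.6%). The rule chose each position by this direction, so nothing is read from the gap between these ranges. Wild-type 5hmC ranged from 13.7 to 36%, and knockout 5hmC from 0 to 2.78%. The stretch also held 1 listed 5mC position and 5 listed 5hmC positions that are not members, and these had the same directions. In the authors' deposited tables the smallest q of the cluster was 0.00375 for 5hmC, at position 143295705, and 0.371 for 5mC. The sequence of this stretch was not analysed here.

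A cluster of 18 members in Mpp7, a membrane scaffold gene, covers 109 bp at chr18:7608966-7609074. Its levels were low and alike: 14.6 to 18.3% 5mC in wild type, 28.9 to 32.2% in the knockout, and 14.6 to 21.5% against 0 to 4.27% for 5hmC. Its members are spaced by 6 bp in 16 of the 17 gaps, and the remaining gap is 12 bp. Such regular spacing is known from short tandem repeats, where reads of different copies are hard to place; whether placement touches these levels was not tested. The smallest q there was 0.0124 for 5hmC in the authors' deposited table.

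Of the other large clusters, 12 members between genes at chr12:33780928-33781064 had median 5mC of 29.7% and 61.7% and median 5hmC of 32.0% and 0%. The nearest gene of that cluster is Gm40383, at 132854 bp. In Prdm16, the gene of a zinc-finger factor needed for haematopoietic stem cell maintenance, 7 members at chr4:154334825-154334964 had median 5mC of 62.9% in wild type against 91.7% in the knockout. Their median 5hmC was 33.3% and 5.41%, and their median sum in wild type was 101.8%. Zc3h12d, Panx2 and the overlapping ends of Bmp8a and Oxct2a held 5 members each, with median 5mC from 13.1 to 43.6% in wild type against from 35.4 to 69.3% in the knockout.

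**Figure D5:**
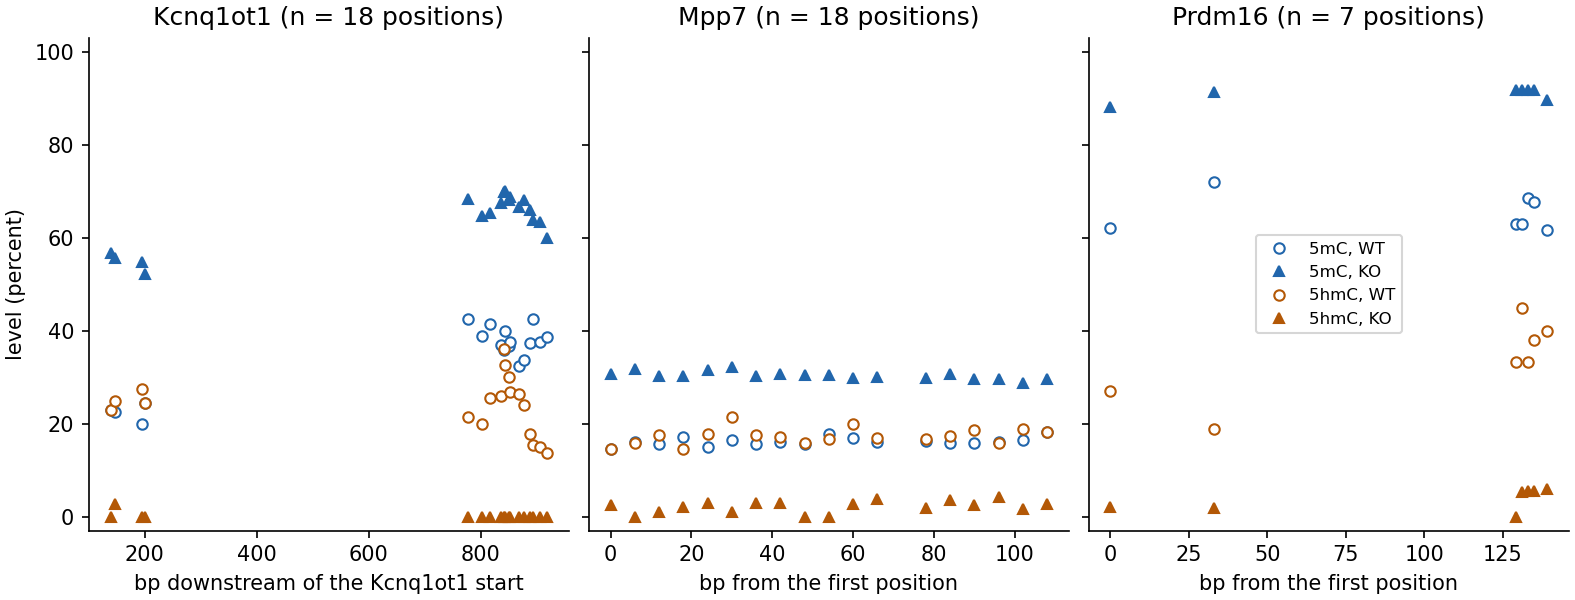
Levels in percent at each member of 3 clusters, as distance in bp downstream of the Kcnq1ot1 start (left) or from the first member (Mpp7 and Prdm16); circles are wild type, triangles knockout, blue 5mC and orange 5hmC. Within each cluster the knockout 5mC values lie above all wild-type 5mC values and the knockout 5hmC values below all wild-type 5hmC values. Each position was chosen by these directions, and the positions are neighbours from the same libraries. They are not replicates of a genotype, and nothing is read from the separation.

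On single genes the members were thinly spread. In all 2319 members lay in or within 2000 bp of a gene, and they fell on 2214 of 34610 genes, or 6.40%, of which 1752 are protein-coding and 462 long non-coding. Longer genes held a member more often, from 3.41% of genes under 20 kb to 8.32% from 20 to 100 kb and 22.8% of genes of 100 kb and over. After Kcnq1, Kcnq1ot1 and Mpp7, the largest numbers were 11 members each at Gm37013, Gm38666 and Gm38667, overlapping models on chromosome 18 that span the clustered protocadherins, cell-surface adhesion genes of neurons, and that share the same 11 positions. Of 57 clustered protocadherin genes 33 held a member, through 12 positions that overlapping genes share. The 33 are thus not separate cases, and nothing is read from their share beside the 6.40% of all genes. The 11 positions of the overlapping models had 12.5 to 85.1% 5mC in wild type against 61.5 to 98.8% in the knockout.

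The genes at which both differences were largest mostly showed nearly complete levels, and none had a q under 0.05. At Ano3, the gene of a brain-expressed anoctamin, the authors' deposited tables give 0% and 92.3% 5mC and 85.7% and 0% 5hmC (q = 1 and 0.888). Olfr1247, an olfactory receptor gene, had a member 2054 bp downstream of its start with 0% and 84.2% 5mC and 100% and 0% 5hmC in the authors' deposited tables. At Fzd4, a Wnt receptor gene, 2 members had 14.3 and 54.6% 5mC in wild type against 100% in the knockout, and 83.3 and 44.4% 5hmC against 0%, in the authors' deposited tables. Tspan8 (with the overlapping 4930422I22Rik), Gm2046, Gm9119 and Gm29685 each had 16.7% and 100% 5mC and 83.3% and 0% 5hmC there. Adgrb3, Gm26861 and Dnah8 each had 20% and 100% 5mC and 80% and 0% 5hmC in the authors' deposited tables. Coverage is not stated, and levels of 0% and 100% can rest on few reads. Others of this group were Pth2r, a parathyroid hormone receptor gene, with 0% and 83.3% 5mC, and Tenm3 with the overlapping 4930555F03Rik, with 15.8% and 92.3% 5mC in the authors' deposited tables.

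Small q-values picked out other members. A 5mC q under 0.05 stood at 3 members (0.0838%) and a 5hmC q under 0.05 at 60 (1.68%) in the authors' deposited tables, while 2812 (78.6%) had q = 1 for both marks. Among all listed positions of the same direction these shares are 0.158% for 5mC and 1.20% for 5hmC, and over each list in both directions 0.0639% and 0.427%. Differences of at least 50 points stood at 473 members for 5mC (13.2%), against 20.3% of all higher 5mC positions and 8.18% of that list. For 5hmC they stood at 432 members (12.1%), against 6.29% of all lower 5hmC positions and 2.24% of that list. Presence in both tables is part of how the members were chosen, so nothing is read from these shares.

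The smallest 5hmC q, 1.04e-16 in the authors' deposited table, stood at position 28781 of the scaffold Un_JH584304, with 12.6% and 0% 5hmC but only 66.3% and 76.5% 5mC. Next came chr8:95926128-95926128, with 53.6% and 5.56% 5hmC and 31.7% and 46.4% 5mC (5hmC q = 2.37e-09, the authors' deposited tables). In Tnr, the gene of the matrix protein tenascin-R, with the overlapping Gm31348, the authors' deposited tables give 63.4% and 0% 5hmC (q = 8.08e-06) and 37.5% and 65.2% 5mC. Runx2, the master transcription factor gene of bone-forming cells, held 4 members, and the one at position 44567474 had 65.4% and 0% 5hmC (q = 8.83e-05) and 19.4% and 64.9% 5mC in the authors' deposited tables. At the other 3 Runx2 members 5mC was 47.4 to 54.6% in wild type against 80.6 to 94.4% in the knockout there. A position 5628 bp from Tlr2, a receptor gene for bacterial lipoproteins, had 27.5% and 0% 5hmC (q = 0.000518 in the authors' deposited table). Gm7827, Gm5591 and Uap1l1 followed with 5hmC of 50, 40.3 and 39.0% in wild type against 0% in the knockout, and q of 0.000636, 0.000977 and 0.00314 in the authors' deposited table.

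The 60 members with a small 5hmC q had a median 5hmC difference of -36.3 points, against -29.2 points in the other 3519. Size alone did not set q, since the smallest q went with a difference of -12.6 points. The 5hmC difference is part of the summed level, so the choice favours a lower sum and nothing is read from it. In these 60 the median change of the summed level was -5.51 points, and the sum was higher in the knockout at 10 of them. For the other 3519 members the median was 2.85 points and the count 2395. At the scale of the smallest differences, chr4:145781667-145781667 and Unc93a stood at 10% and 0% 5hmC in the authors' deposited tables, and chr16:17222326-17222326 at 10.8% and 0%, with 6.29% and 16.3% 5mC. No member lies closer to the boundary of the rule, because no listed difference is smaller than 10 points.

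Among 28 genes of DNA methylation, TET and IDH enzymes, 2 held a member (7.14%, near the 6.40% of all genes). Dnmt3b, which encodes a de novo methyltransferase, had 22.2% and 81.8% 5mC and 66.7% and 9.09% 5hmC in the authors' deposited tables. The other was Tet1, at the position 17015 bp downstream of its start, with a summed level of 91.7% in wild type against 96.3% in the knockout.

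Of 40 genes of stem cell identity, 10 held a member (25%), with 28 members between them. The median length of the listed genes was 23995 bp, and 8.32% of all genes from 20 to 100 kb held one; 9 of the 28 positions lay in Prdm16. Etv6, the gene of an ETS repressor needed by adult stem cells, held 6 members with 5mC of 13.3 to 75.6% in wild type against 46.9 to 100% in the knockout, and with 5hmC of 22.0 to 55.6% against 0%. Msi2, an RNA-binding regulator of stem cell self-renewal, held 5 with 9.09 to 73.9% and 40.6 to 100% 5mC, and with 27.3 to 55.6% 5hmC in wild type. Other listed positions of both genes went the other way, so the members do not give the direction of the gene. With members included, 14 of 28 listed 5mC positions in Etv6 and 10 of 17 in Msi2 were higher in the knockout. Of the listed 5hmC positions, 16 of 42 in Etv6 and 23 of 49 in Msi2 were lower. Runx1, a transcription factor gene needed for the emergence of blood stem cells, had 43.8% and 100% 5mC and 42.9% and 0% 5hmC in the authors' deposited tables. Among the rest were Ly6a, the Sca-1 gene by which the cells were sorted, and Procr, Foxo3, Fli1 and Hmga2, with 1 member each and 5mC from 63.2 to 81.8% in wild type against from 91.4 to 100% in the knockout. No member of this list had a q under 0.05, and the smallest was 0.600 for 5hmC.

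Lineage genes held members in shares of 3.33 to 10%, around the 6.40% of all genes. The count was 1 of 30 myeloid genes, at Ltf, the lactoferrin gene of neutrophil granules (61.9% and 100% 5mC in the authors' deposited tables). Among erythroid and megakaryocyte genes it was 3 of 30, at Bcl11a, Zfpm1 and Epb41. Bcl11a, the gene of the fetal globin repressor, held 3 members with 40 to 86.5% 5mC in wild type against 86.7 to 100% in the knockout. Zfpm1, which encodes the GATA1 cofactor FOG1, had 74.3% and 100% 5mC, and Epb41, of the red cell membrane skeleton, 47.7% and 69.2%, in the authors' deposited tables. Of 32 lymphoid genes 2 held a member, Tbx21 (shown above) and Cd2, an adhesion receptor gene of T cells, with 31.3% and 100% 5mC and 50% and 0% 5hmC in the authors' deposited tables. Of 22 genes of stromal, endothelial and bone cells, which the sort should leave out, 2 held a member: Runx2 and Cdh5, the VE-cadherin gene (40% and 84.2% 5mC in the authors' deposited tables). None of the 30 genes on the list of myeloid leukaemia drivers held one, with a median gene length of 46316 bp and against 8.32% of all genes from 20 to 100 kb. That list did not include Etv6 and Runx1, which held members and were counted under stem cell identity, so the count depends on how genes were divided among lists.

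Of 35 genes of TGF-beta, BMP and cytokine signalling, 8 held a member (22.9%, against 6.40% of all genes and 8.32% of those from 20 to 100 kb), with a median gene length of 42791 bp in the list. Smad1, a BMP signal transducer, had 44.4% and 100% 5mC and 44.4% and 0% 5hmC in the authors' deposited tables. Stat5b, a transducer of cytokine receptors, had 38.9% and 84.6% 5mC and 44.4% and 5.26% 5hmC at 1359 bp downstream of its start there. Tgfbr3, a co-receptor gene, had 58.8% and 96.9% 5mC, and Smad3, a TGF-beta transducer, had 46.7% and 83.3% at a member 1880 bp before its start, in the authors' deposited tables. Of 36 Wnt and Notch genes 4 held a member (11.1%): Fzd4 (above), the ligand genes Wnt3 (24.1% and 66.7% 5mC) and Wnt4 (49.0% and 82.4%), and the receptor gene Notch2 (56.5% and 90%), in the authors' deposited tables.

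Genes tied to acetylation, to HDAC6 substrates and to the cell cycle were read against the 6.40% of all genes in the same way. Of 29 acetylation enzyme genes 3 held a member (10.3%), among them Sirt3, a mitochondrial deacetylase (25.7% and 65.5% 5mC), and Kat7, a histone acetyltransferase (64.3% and 89.7%), in the authors' deposited tables. Of 25 genes of HDAC6 substrates, microtubules and aggresomes 1 did (4%), Dync1h1, the heavy chain of the dynein motor (38.6% and 75% 5mC in the authors' deposited tables). Of 33 cell cycle and quiescence genes 1 did (3.03%), Cdk6, a G1 kinase that governs exit from quiescence, with 20% and 69.2% 5mC and 50% and 0% 5hmC in the authors' deposited tables.

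Of 31 imprinted genes 6 held a member (19.4%, against 6.40% of all genes), through 24 positions, 18 of them in the Kcnq1ot1 cluster. The 6 include overlapping pairs that share positions, Kcnq1 with Kcnq1ot1 and Airn with Igf2r. Grb10, a growth inhibitor gene, had 2 members at 44.4 and 59.3% 5mC in wild type against 78.8 and 94.7% in the knockout, per the authors' deposited tables. H19, a maternally expressed non-coding RNA, had 45.2% and 79.0% 5mC and 19.1% and 0% 5hmC there. Airn, the paternal antisense RNA, and Igf2r, the receptor gene that it overlaps, shared a pair of members 5 bp apart, each at 30.4% 5mC in wild type against 55.3 or 56% in the knockout of the authors' deposited tables. Because an imprinted site is often methylated on a single parental allele, intermediate levels are usual there. Long neuronal genes, listed for their length, held a member in 11 of 24 cases (45.8%), against 22.8% of all genes of 100 kb and over. Their median length was 1.50655e+06 bp, against 165468 bp for that class, so the shares are not matched for length. Rbfox1, Ctnna2, Ptprd and Cntn5 led them, with 5mC at their leading members of 20 to 58.3% in wild type against 80 to 100% in the knockout of the authors' deposited tables.

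By chromosome, members made up 24.4 to 32.8% of the shared positions on the autosomes other than 17, where they made up 37.9% (231 of 609). On chromosome 17 from 24 to 52 Mb, a stretch that holds the major histocompatibility complex, they were 145 of 289 (50.2%, 44.4 to 55.9%), and on the rest of that chromosome 26.9% (22.3 to 32.0%). That stretch was picked with its values known. There 70.2% of all 1578 listed 5mC positions were higher in the knockout, and the members were 13.1% of these higher positions, against 16.1% on the rest of the chromosome. Members of the stretch had median 5mC of 36% and 80.6% and median 5hmC of 31.0% and 0%, and 6 of them, Runx2 among them, had a 5hmC q under 0.05. Hspa1b, a heat shock protein gene in this stretch, held 4 members with 5mC of 19.1 to 28.4% in wild type against 37.4 to 51.9% in the knockout.

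On chromosome X the members were 51 of 208 shared positions (24.5%), with median 5mC of 36.2% and 90.2% and median 5hmC of 42.3% and 0%. Within 4 Mb of Hdac6 1 of 8 shared positions was a member. On chromosome Y they were 30 of 167 (18.0%, 12.9 to 24.5%), with median 5mC of 45.0% and 91.8%.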

How the data were processed

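DNA of LSK cells was sequenced after bisulfite or oxidative bisulfite conversion, with 1 library per genotype and method. The authors deposited 2 tables that compare knockout with wild type, 1 for each mark. Per the file headers they give levels as a fraction for each genotype, their difference as a score (meth.diff), and a p-value and a q-value for each position. Levels are printed as percent. Listed p-values lie under 0.01 and listed differences are 10 points or more. The aligner, the caller, the test, the coverage and which libraries gave which level are not stated in the sources used here, so depth is unknown and single levels have no interval. Per the submitters' processing notes the build is GRCm39, but all 443 (5mC) and 843 (5hmC) listed positions checked in promoter windows of GRCm38.p6 were CG, and positions are read as GRCm38.

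Tables were joined on chromosome and start with Python 3.11.15, pandas 2.3.3, numpy 2.4.6 and scipy 1.17.1; figures used matplotlib 3.10.9. A position belonged to every gene that it lay in or within 2000 bp of (34610 RefSeq genes); 425 of 426 entries of 14 gene lists matched. Clusters join members with gaps of up to 1000 bp. Intervals are Wilson 95% for shares and order statistics for medians, over positions only. No test was run, since each group is 1 library and the values chose the members. Scripts were tested on simulated tables. Named are the 15 genes with the largest smaller difference, up to 4 genes per list, 8 members by q, 6 genes by number of members and the 3 smallest members; promoter examples, clusters, Prdm16, Hspa1b, Airn, Igf2r and the other stem cell genes were picked after their values were seen. Some genes that this rule names are not reported here. The members and lists were chosen with earlier results of these data known. Alternatives were size and p minimums, levels of 0 or 1, sums above 1, and distances.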

Additional observations from a re-analysis of the deposited data

How the results depend on the processing

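The 24 values of the 45 computed under other settings that moved are given here; the other 21 stayed within the range set for them and none changed sign. With differences of at least 25 points in both tables, 2311 members made up 23.7% of such shared positions, with median differences of 38.7 points in 5mC and -35.3 in 5hmC and a median change of the sum of 2.22 points. With at least 50 points these were 328 members, 11.5%, 59.0, -58.1 and 0 points. With p under 0.001 in both tables, 220 members had median differences of 38.1 and -33.8 points. Where both sums were at most 1, the median change of the sum was 3.21 points. Without levels of exactly 0 or 1, 408 members remained (26.3% of such shared positions), with a median 5mC difference of 32.15 points and a change of the sum of 1.77 points. Counting gene ends within 1000 or 5000 bp gave 12.2 or 34.95% of members. Neighbouring 5mC positions were higher in 87.3% within 200 bp and in 52.7% within 5000 bp, and neighbouring 5hmC positions lower in 76.7% and 45.4%. Fewer positions under stricter settings follow from their construction; the cause of the other shifts was not tested.

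No paired analysis was possible because each genotype has 1 library per method, and the numbers 1 and 2 in the labels mark the method. Unknown coverage limits every level: 3171 members (88.6%) have some level of exactly 0 or 100%, and no value has an error between animals.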

Other observations

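At 14 shared positions both marks differed in the same direction. Of the 11 at which both were higher in the knockout, 8 lie on chromosome 17 from 24 to 52 Mb, at Col11a2, Nfkbil1, Ttbk1, Cul9 (2 positions), Kif6, Rftn1 and 1 position in no gene. In Cul9, the gene of a cullin of ubiquitin ligases, position 46522286 had 22.5% and 58.7% 5mC and 2.33% and 28.6% 5hmC in the authors' deposited tables, so that the summed level was 24.8% in wild type against 87.3% in the knockout. At Nfkbil1, a gene of the major histocompatibility complex, the sums were 33.3% and 98.3%, and at Kif6, a kinesin gene, 24.2% and 82.4%. The other 3 lie at Kcnmb2, at Adamtsl3 and outside genes on chromosome 5, with sums of 24 to 38.2% in wild type against 78.3 to 98.7% in the knockout. The 3 positions at which both marks were lower lie on chromosomes X and Y. At chromosome X position 4549424 the authors' deposited tables give 46.2% and 24% 5mC and 53.3% and 14.3% 5hmC, with a 5hmC q of 0.000101.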
